A study of Mus musculus with 2 samples.

Results

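A set of genes that govern how pyruvate enters mitochondrial oxidation was followed across the cell types of the brain in mice with human E4 or human E3. They are the carrier genes Mpc1 and Mpc2, the pyruvate dehydrogenase genes Pdha1, Pdhb and Dlat, the dehydrogenase kinase genes Pdk1, Pdk2, Pdk3 and Pdk4, and the dehydrogenase phosphatase gene Pdp1. They were taken by symbol, 10 of the 32285 genes of both count tables, and all 10 had counts in both libraries. The E4 library was made from APOE4 mice, which carry human E4 on both alleles of the mouse Apoe locus, and the E3 library from APOE3 mice, which carry human E3 on both alleles. In both groups the human gene is driven by the mouse Apoe promoter and mouse Apoe is gone, and neither group is a wild type. All mice were females of 11 to 12 months. For each genotype the right hemispheres of 3 perfused mice, without brainstem and cerebellum, were pooled, digested warm with an enzyme kit for adult brain, and made into 1 library of droplet-based single-cell RNA sequencing (scRNA-seq). With 1 pool per genotype the spread between mice is not known, so values below carry intervals for counting error only and no test of genotype was possible.

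Pyruvate, the end product of glycolysis, crosses the inner mitochondrial membrane through a carrier built from Mpc1 and Mpc2, and neither subunit transports it alone. The pyruvate dehydrogenase complex then turns it into acetyl-CoA for the citric acid cycle. Pdha1 and Pdhb form its first enzyme, which removes carbon dioxide, and Dlat forms the core that hands the acetyl group to coenzyme A. The kinases phosphorylate Pdha1 and switch the complex off, which leaves more pyruvate to become lactate, and the phosphatases switch it on again. The kinases are known for different triggers. Pdk1 is a target of hypoxia-inducible factor, Pdk4 is raised in fasting by PPAR, FOXO and glucocorticoid receptors, Pdk2 is widely expressed, and Pdk3 is known from testis and brain. Astrocytes are known as glia that turn much of their glucose into lactate.

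The E4 library held 13802 barcodes with a median of 4085 unique molecular identifiers (UMIs, each standing for 1 captured mRNA molecule) and the E3 library held 11485 barcodes with a median of 3784, of which 13528 and 11288 passed the cell filter. More cells were kept than the study states for the same limits, and the gap was not traced. The libraries shared 46 barcode sequences. Cell types were named from marker genes and are written with "-like". For each of the 10 types with at least 100 cells in both libraries, counts were summed over its cells and are given as CPM, that is, scaled to the same total of UMIs for every type and library. The types and their cells in E4 and in E3 were astrocyte-like (4153 and 3736), microglia-like (3605 and 2932), endothelial-like (1420 and 981), oligodendrocyte-like (857 and 748), choroid plexus-like (417 and 405), neuroprogenitor-like (375 and 337), macrophage-like (222 and 199), ependymal-like (193 and 192), meningeal-like (185 and 176) and erythroid-like (111 and 142) cells. The markers were highest in the type they name for all 8 genes (5 for erythroid), except meningeal-like cells with 7 of 8. The names were given from these same markers, so this is no check of the names. Differences between types are described and not tested, since the types were drawn from the same counts.

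The 10 genes lie on 9 chromosomes of GRCm38 (mm10), and each symbol in the files carries the same Ensembl identifier in GENCODE. Mpc1 spans chr17:8282904-8297661 and Mpc2 chr1:165460637-165481214, both on the plus strand. Pdha1 spans chrX:160122209-160138413, Pdhb chr14:8165996-8173025 and Dlat chr9:50634633-50659780, all on the minus strand. Of the kinase genes, Pdk1 lies at chr2:71873224-71903858 on the plus strand, and Pdk2 (chr11:95026258-95041354), Pdk3 (chrX:93764607-93832201) and Pdk4 (chr6:5483351-5496309) on the minus strand, as does Pdp1 (chr4:11958184-11966452). Mpc1 has an annotated pseudogene copy, Mpc1-ps, and Mpc2 overlaps Gm37860 on its own strand, so that reads of these 2 genes can be split or dropped in counting and their levels are less certain. Mpc1, Pdha1 and Pdk2 each overlap a gene on the opposite strand (4930506C21Rik, Map3k15 and Gm11513).

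The upstream sequences of the 4 kinase genes are shown because these genes differed in the cell types that held most of each. Each window holds 199 bases, from 250 to 52 bases before the gene's RefSeq start, and overlaps no annotated exon of that gene. Exons of other genes were not checked. All are written 5′ to 3′ on the gene's own strand, from the RefSeq promoter table on GRCm38.p6. Capitals mark ACGTG read on either strand, a form of the core bound by hypoxia-inducible factor. The other form, GCGTG, was not searched or marked.
Pdk1 (chr2:71872974-71873172, plus strand): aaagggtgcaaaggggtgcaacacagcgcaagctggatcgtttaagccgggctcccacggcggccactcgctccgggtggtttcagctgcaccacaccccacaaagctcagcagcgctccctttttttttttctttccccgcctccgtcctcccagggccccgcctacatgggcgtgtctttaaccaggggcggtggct
Pdk2 (chr11:95041423-95041621, minus strand): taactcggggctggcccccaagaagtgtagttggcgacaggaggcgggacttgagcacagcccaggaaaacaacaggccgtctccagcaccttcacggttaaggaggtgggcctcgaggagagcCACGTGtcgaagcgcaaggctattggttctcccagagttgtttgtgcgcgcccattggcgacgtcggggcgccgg
Pdk3 (chrX:93832202-93832400, minus strand): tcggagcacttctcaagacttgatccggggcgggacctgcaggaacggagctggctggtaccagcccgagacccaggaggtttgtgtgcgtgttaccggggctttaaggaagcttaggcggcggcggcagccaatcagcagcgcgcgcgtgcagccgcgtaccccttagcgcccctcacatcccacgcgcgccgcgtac
Pdk4 (chr6:5496330-5496528, minus strand): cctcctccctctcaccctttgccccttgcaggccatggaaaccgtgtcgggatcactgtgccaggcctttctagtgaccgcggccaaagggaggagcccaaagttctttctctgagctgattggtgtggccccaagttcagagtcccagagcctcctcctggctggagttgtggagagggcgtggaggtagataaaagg
The windows of Pdk3, Pdk2 and Pdk1 held 22, 16 and 13 CpG dinucleotides at a GC content of 66.3%, 62.3% and 61.8%. The window of Pdk4 held 5 at 58.8%, against medians of 4 and 51.8% over 32851 windows of the same length. The only match to ACGTG was in Pdk2, where the palindrome CACGTG, 126 to 121 bases before the start, gives 2 overlapping matches on opposite strands, and 12.9% of all windows held this motif. The FOXO site GTAAACA (2.56% of all windows), the nuclear receptor core AGGTCA (11.3%) and the glucocorticoid receptor core AGAACA (13.2%), each searched on both strands, were not found in these 4 windows. A match or its lack in 199 bases says nothing of binding. Promoters were matched for 9 of the 10 genes.

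The kinase genes differed in the cells that held most of each. Pdk2 was highest in astrocyte-like cells, Pdk1 in microglia-like and ependymal-like cells, Pdk3 in meningeal-like, oligodendrocyte-like and choroid plexus-like cells, and Pdk4 in astrocyte-like and ependymal-like cells. In the order of the 10 types by the mean of both libraries, 14 of 90 neighbouring pairs had intervals that were apart in both libraries, and for 3 of the 10 genes (Mpc2, Pdha1 and Pdk2) this held for the highest type and the next. The highest type was the same in both libraries for 6 genes. Over all kept cells the genes ranged from Mpc1, with 24082 UMIs in E4 and 19622 UMIs in E3, to Pdk4, with 478 UMIs in E4 and 459 UMIs in E3. Erythroid-like cells, which in the mature form have no mitochondria, had the lowest level of 8 of the 10 genes. They were named from haemoglobin genes and Alas2, whose UMIs count in the total and lower the CPM of all other genes. How much of the low levels comes from this, and whether these cells were mature, was not tested.

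**Figure D1:**
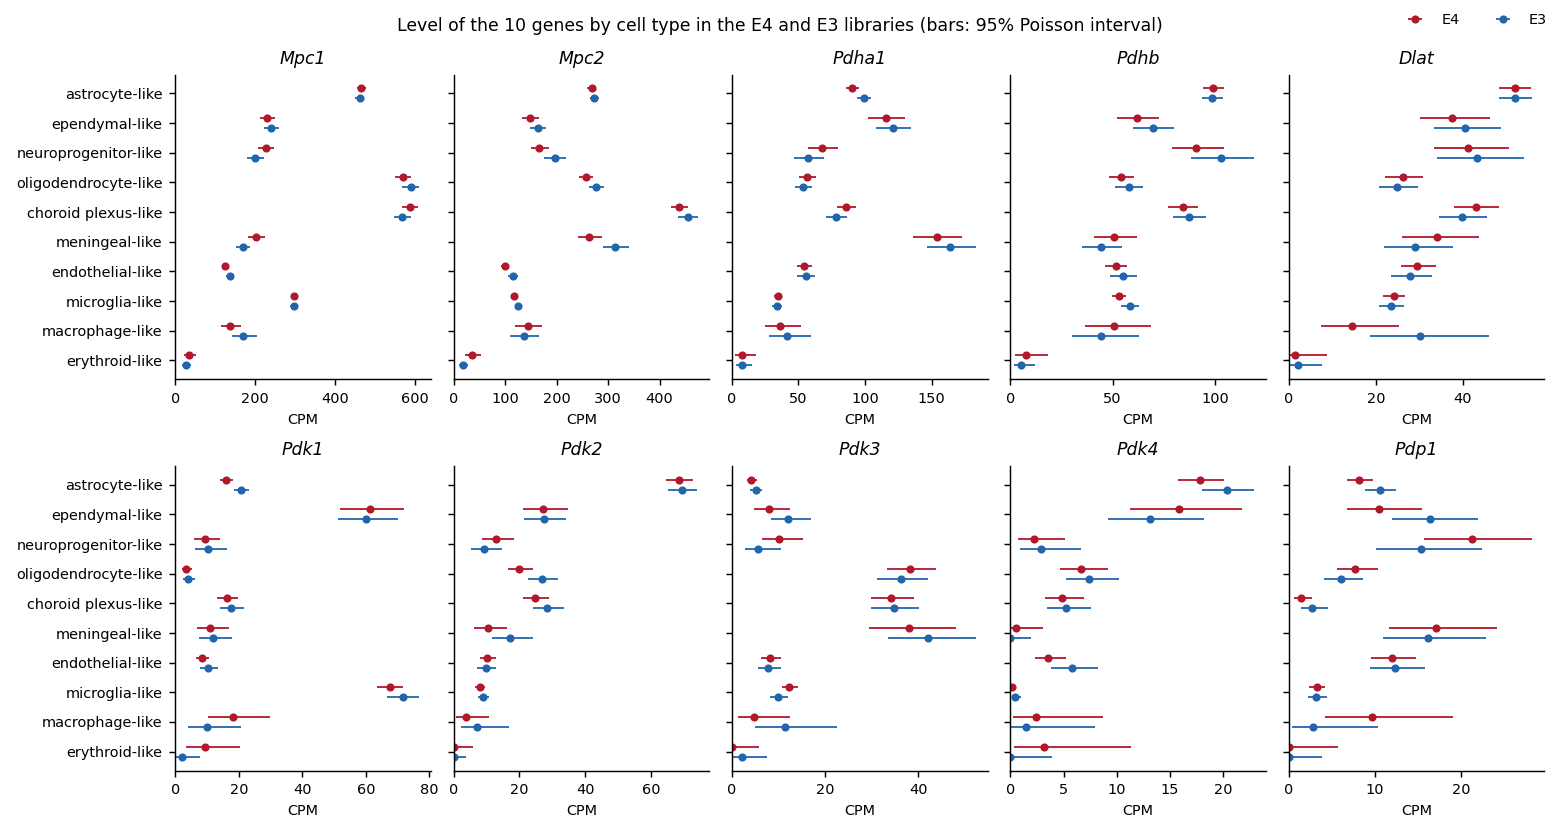
Level of each gene in CPM (horizontal axes, each starting at 0) in the 10 cell types (rows), with E4 in red above E3 in blue and bars for the exact 95% Poisson interval. Pdk2 peaked in astrocyte-like cells at 68.5 CPM in E4 and 69.5 CPM in E3, and Pdk1 in microglia-like cells at 67.5 CPM in E4 and 71.6 CPM in E3.

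Of the carrier genes, Mpc1 was at 569 CPM in E4 and 589 CPM in E3 oligodendrocyte-like cells, and at 588 CPM in E4 and 569 CPM in E3 choroid plexus-like cells. These types changed places between the libraries and were not apart. Astrocyte-like cells followed at 466 CPM in E4 and 462 CPM in E3 and microglia-like cells at 298 CPM in each library, both apart from their neighbours. Ependymal-like, neuroprogenitor-like, meningeal-like, macrophage-like and endothelial-like cells lay between 124 and 231 CPM in E4 and between 137 and 240 CPM in E3, with overlapping neighbours. Mpc2 had another leader. It reached 439 CPM in E4 and 455 CPM in E3 choroid plexus-like cells, the epithelium that makes cerebrospinal fluid, 1.55-fold above the next type by the mean of both libraries. Meningeal-like cells (264 CPM in E4 and 314 CPM in E3), oligodendrocyte-like cells (257 and 277 CPM) and astrocyte-like cells (268 and 273 CPM) came next and overlapped. The lowest levels outside erythroid-like cells were in microglia-like cells (117 CPM in E4 and 126 CPM in E3) and endothelial-like cells (99.3 CPM in E4 and 116 CPM in E3).

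Because both subunits are needed for transport, their ratio was followed within each type. These are 3′ counts, which do not grow with transcript length, but capture can differ between genes, so a ratio is read across cell types and not as a ratio of proteins. Microglia-like cells had 2.55 Mpc1 UMIs per Mpc2 UMI in E4 (95% interval 2.42 to 2.69) and 2.37 in E3 (2.22 to 2.52). Oligodendrocyte-like cells had 2.21 in E4 and 2.13 in E3, and astrocyte-like cells 1.74 in E4 and 1.69 in E3. At the other end, meningeal-like cells had 0.765 in E4 (0.666 to 0.878) and 0.537 in E3 (0.468 to 0.616), and were the only type whose intervals lay below 1 in both libraries. The ratio thus ranged over more than 3-fold between types while Mpc1 and Mpc2 stayed correlated over types.

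The dehydrogenase genes were lower than the carrier genes and spread differently. Pdha1, the subunit that the kinases phosphorylate, was highest in meningeal-like cells at 154 CPM in E4 (136 to 173) and 164 CPM in E3 (147 to 183), followed by ependymal-like cells at 116 CPM in E4 and 121 CPM in E3. Both types were apart from the next in both libraries, by 1.34-fold and 1.25-fold. Astrocyte-like cells had 90.6 CPM in E4 and 99.3 CPM in E3, and choroid plexus-like cells 85.8 CPM in E4 and 78.1 CPM in E3. Microglia-like cells had only 34.7 CPM in E4 and 33.7 CPM in E3, 4.50-fold above erythroid-like cells, in which 5 and 7 UMIs were counted. Pdha1 lies on the X chromosome, as does Pdk3, and all mice were female.

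Pdhb, the partner of Pdha1 in the first enzyme, did not share its peak. It was at 99.2 CPM in E4 and 98.7 CPM in E3 astrocyte-like cells, at 90.9 CPM in E4 and 103 CPM in E3 neuroprogenitor-like cells and at 84.2 CPM in E4 and 87.4 CPM in E3 choroid plexus-like cells, 3 types that overlapped. In meningeal-like cells, where Pdha1 was highest, Pdhb was at 50.6 CPM in E4 and 44.1 CPM in E3, its lowest level outside erythroid-like cells by the mean of both libraries. Meningeal-like cells therefore had 3.04 Pdha1 UMIs per Pdhb UMI in E4 (2.40 to 3.90) and 3.72 in E3 (2.92 to 4.78), against 0.914 in E4 and 1.01 in E3 for astrocyte-like cells and 0.653 in E4 and 0.577 in E3 for microglia-like cells. Dlat, the core subunit, did not share the meningeal peak of Pdha1 either. Its peak was in astrocyte-like cells (51.9 CPM in E4 and 51.95 CPM in E3), with neuroprogenitor-like cells (41.2 CPM in E4 and 43.2 CPM in E3) and choroid plexus-like cells (42.9 and 39.7 CPM) next. Pdhb per Dlat stayed between 1.48 and 2.20 in E4 and between 1.52 and 2.50 in E3 in the types with at least 50 UMIs of each gene in each library.

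**Figure D2:**
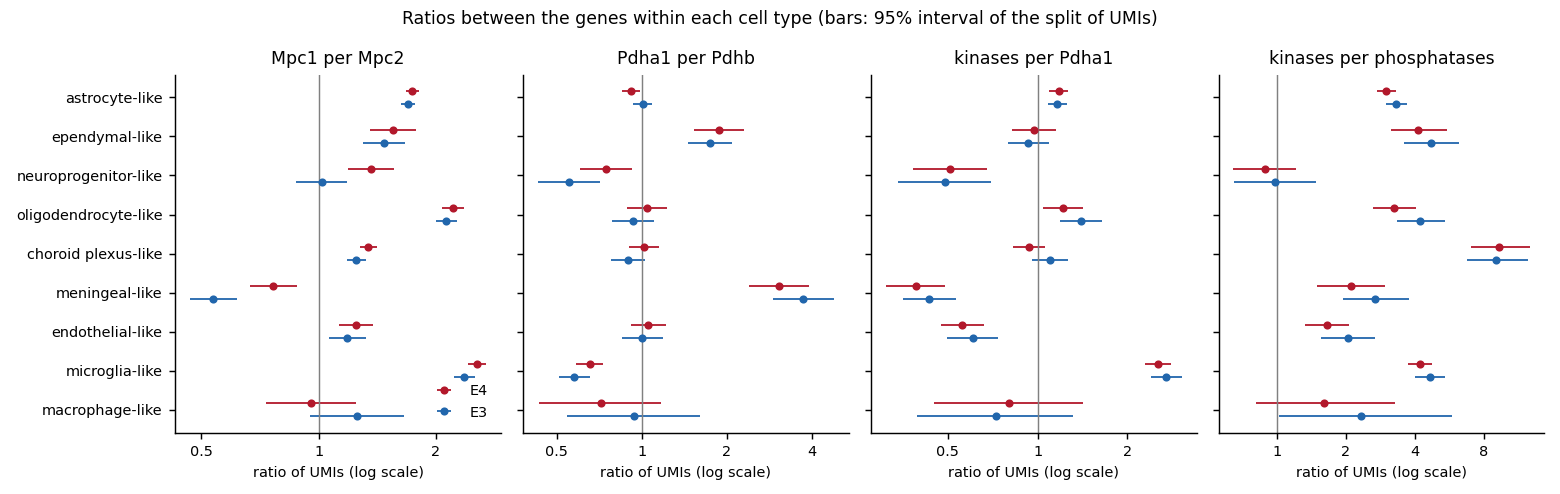
Ratio of UMIs between genes within each cell type (horizontal log axes), with E4 in red above E3 in blue and bars for the exact 95% interval of the split of UMIs. Kinases are the sum of Pdk1 to Pdk4 and phosphatases the sum of Pdp1 and Pdp2. Meningeal-like cells had the lowest Mpc1 per Mpc2 and the highest Pdha1 per Pdhb, and microglia-like cells the highest number of kinase UMIs per Pdha1 UMI, 2.53 in E4 and 2.70 in E3.

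Pdk1, the kinase gene induced in hypoxia, was at 67.5 CPM in E4 (63.5 to 71.6) and 71.6 CPM in E3 (66.8 to 76.7) microglia-like cells, from 1086 and 807 UMIs. Ependymal-like cells, the ciliated lining of the ventricles, had 61.4 CPM in E4 and 60.2 CPM in E3. These types overlapped each other and stood apart from the rest by 3.31-fold. Astrocyte-like cells had 16.0 CPM in E4 and 20.7 CPM in E3 and choroid plexus-like cells 16.3 CPM in E4 and 17.6 CPM in E3. By the mean of both libraries the lowest level was in oligodendrocyte-like cells, at 3.41 CPM in E4 and 4.01 CPM in E3, and microglia-like cells were 18.7-fold higher. Erythroid-like cells overlapped with them, at 9.38 CPM in E4 and 2.11 CPM in E3 from 6 and 2 UMIs. Macrophage-like cells, which share much of their biology with microglia, had 18.1 CPM in E4 and 10.0 CPM in E3, from 15 and 7 UMIs.

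Pdk2, the widely expressed kinase gene, was at 68.5 CPM in E4 (64.4 to 72.8) and 69.5 CPM in E3 (65.1 to 74.0) astrocyte-like cells, from 1047 and 956 UMIs, 2.53-fold above the next type. Ependymal-like cells (27.1 CPM in E4 and 27.3 CPM in E3), oligodendrocyte-like cells (19.9 and 26.9 CPM) and choroid plexus-like cells (24.7 and 28.5 CPM) came next and overlapped. Microglia-like cells had 7.89 CPM in E4 and 8.96 CPM in E3. No Pdk2 UMI was seen in erythroid-like cells, which allows up to 4.69 CPM in E4 and 3.16 CPM in E3 (3 UMIs per library). Pdk2 was thus higher in astrocyte-like than in microglia-like cells, and Pdk1 was higher in microglia-like than in astrocyte-like cells.

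Pdk3 was at 37.9 CPM in E4 and 42.1 CPM in E3 meningeal-like cells, at 38.3 CPM in E4 and 36.3 CPM in E3 oligodendrocyte-like cells and at 34.2 CPM in E4 and 34.7 CPM in E3 choroid plexus-like cells. The 3 types overlapped and were 3.10-fold above microglia-like cells, which had 12.3 CPM in E4 and 9.94 CPM in E3. Outside erythroid-like cells, astrocyte-like cells were lowest at 4.12 CPM in E4 and 5.09 CPM in E3, from 63 and 70 UMIs. Pdk4, the kinase gene induced by fasting, was at 17.8 CPM in E4 (15.8 to 20.05) and 20.3 CPM in E3 (18.0 to 22.9) astrocyte-like cells and at 15.9 CPM in E4 and 13.1 CPM in E3 ependymal-like cells, which overlapped. Oligodendrocyte-like cells had 6.65 CPM in E4 and 7.42 CPM in E3. At the low end, 3605 microglia-like cells in E4 held 3 UMIs of Pdk4 and 2932 in E3 held 5, or 0.186 and 0.444 CPM, and meningeal-like cells held 1 UMI in E4 and 0 in E3. Of all 4 kinase genes, Pdk4 therefore had the widest range between cell types with at least 1 UMI in each library.

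Free RNA from broken cells can place UMIs in cells that do not express a gene, so levels were set beside the markers of the leading type. The sum of 8 astrocyte markers in microglia-like cells was 2.80% of its level in astrocyte-like cells in E4 and 2.67% in E3, and Pdk4 there was at 1.05% in E4 and 2.18% in E3, no higher than the markers. Whether Pdk4 in microglia-like cells comes from free RNA was not tested. Pdk2 in microglia-like cells, at 11.5% in E4 and 12.9% in E3, was above the markers. In oligodendrocyte-like cells the astrocyte markers were at 2.37% in E4 and 2.44% in E3, against 37.3% and 36.5% for Pdk4 and 29.1% and 38.7% for Pdk2. For ependymal-like cells the markers were higher, at 11.5% in E4 and 11.6% in E3, with Pdk4 at 89.1% and 64.5%. In the other direction, 8 microglia markers in astrocyte-like cells were at 1.10% in E4 and 1.09% in E3 of their level in microglia-like cells, and Pdk1 was at 23.7% and 28.9%.

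As shares of the UMIs of the 4 kinase genes, the leading gene was the same in both libraries in 6 of the 8 types with at least 49 kinase UMIs in each. In astrocyte-like cells Pdk2 made up 64.4% in E4 (62.0 to 66.7) and 60.1% in E3 (57.6 to 62.5), Pdk4 16.7% in E4 and 17.6% in E3, Pdk1 15.01% and 17.9%, and Pdk3 3.87% and 4.40%. In microglia-like cells Pdk1 made up 76.8% in E4 (74.5 to 79.0) and 78.7% in E3 (76.1 to 81.2). Ependymal-like cells also led with Pdk1, at 54.6% in E4 and 53.4% in E3, but kept Pdk2 at 24.2% in E4 and 24.3% in E3 and Pdk4 at 14.1% and 11.7%. Pdk3 led in oligodendrocyte-like cells (56.1% in E4 and 48.7% in E3), in choroid plexus-like cells (42.7% and 40.3%) and in meningeal-like cells (63.3% and 59.1%). Endothelial-like and neuroprogenitor-like cells had no clear leader. Pdk2 led endothelial-like cells in E4 (33.5% in E4 and 29.0% in E3) and Pdk1 in E3 (27.6% in E4 and 30.8% in E3). The same held in neuroprogenitor-like cells, with Pdk2 at 37.2% in E4 and 32.7% in E3 and Pdk1 at 26.9% in E4 and 36.7% in E3, from 78 and 49 UMIs. All share intervals are exact binomial and cover counting error only.

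**Figure D3:**
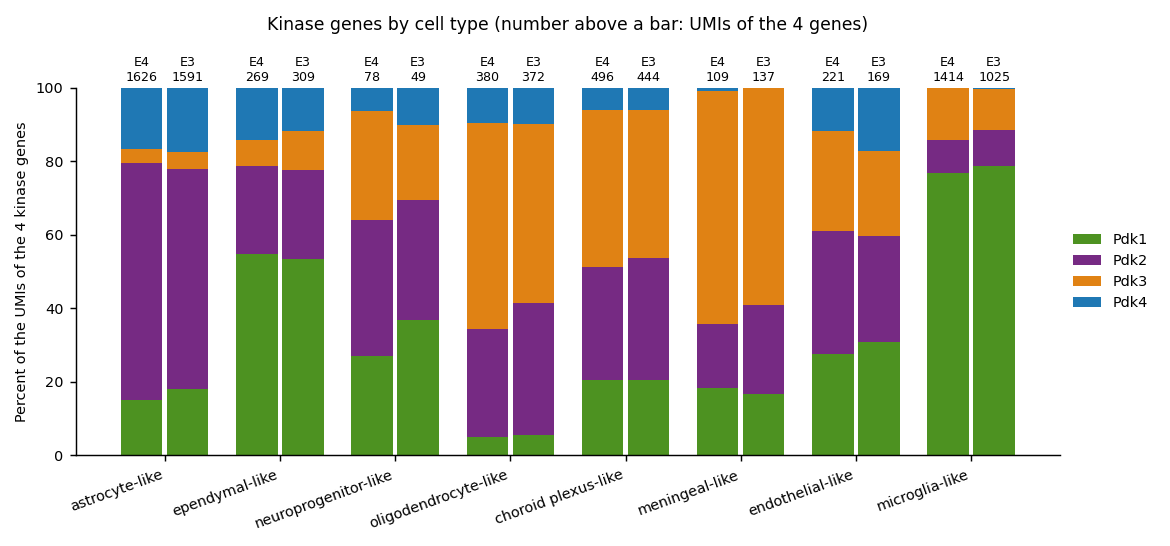
Share of Pdk1, Pdk2, Pdk3 and Pdk4 in the UMIs of the 4 kinase genes (vertical axis, percent) in 8 cell types, with E4 left of E3 in each pair and the number of kinase UMIs above each bar. Pdk2 takes most of the bar in astrocyte-like cells, Pdk1 in microglia-like cells and Pdk3 in meningeal-like cells, and macrophage-like and erythroid-like cells are left out because they had at most 24 kinase UMIs in a library.

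The kinases were also summed. The sum was 112 CPM in E4 and 113 CPM in E3 ependymal-like cells, 106 and 116 CPM in astrocyte-like cells, 87.9 and 91.0 CPM in microglia-like cells. Choroid plexus-like cells followed with 80.02 CPM in E4 and 86.1 CPM in E3. The sum was lower in neuroprogenitor-like (34.6 CPM in E4 and 27.9 CPM in E3), endothelial-like (30.4 and 33.6 CPM) and macrophage-like cells (29.0 and 30.1 CPM), and lowest in erythroid-like cells (12.5 and 4.22 CPM). Set against their substrate, the order was another. Microglia-like cells had 2.53 kinase UMIs per Pdha1 UMI in E4 and 2.70 in E3, oligodendrocyte-like cells 1.21 in E4 and 1.39 in E3, and astrocyte-like cells 1.17 in E4 and 1.16 in E3. Meningeal-like cells had the fewest of the types with at least 50 UMIs on each side, 0.389 in E4 and 0.434 in E3. Mpc1 per Pdha1 was also lowest in meningeal-like cells but was highest in another type, with 10.1 in E4 and 11.0 in E3 for oligodendrocyte-like cells, 8.61 and 8.83 for microglia-like cells, and 1.31 and 1.03 for meningeal-like cells.

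Pdp1, the calcium-dependent phosphatase that reverses the kinases, was a low gene in every type. It was at 21.3 CPM in E4 (15.7 to 28.2) and 15.4 CPM in E3 (10.1 to 22.4) neuroprogenitor-like cells, at 17.0 CPM in E4 and 16.1 CPM in E3 meningeal-like cells and at 10.4 CPM in E4 and 16.4 CPM in E3 ependymal-like cells, which overlapped. Astrocyte-like cells had 8.18 CPM in E4 and 10.5 CPM in E3, microglia-like cells 3.23 and 3.20 CPM, and choroid plexus-like cells 1.45 and 2.71 CPM from 9 and 14 UMIs. No Pdp1 UMI was seen in erythroid-like cells. Its paralogue Pdp2 was the larger of the 2 in glia. Pdp1 per Pdp2 was 0.300 in E4 and 0.433 in E3 for astrocyte-like cells and 0.183 and 0.195 for microglia-like cells, against 1.85 in E4 and 2.95 in E3 for endothelial-like cells. Kinase UMIs per phosphatase UMI ran from 9.36 in E4 and 9.06 in E3 choroid plexus-like cells, over 4.21 and 4.64 in microglia-like and 3.00 and 3.31 in astrocyte-like cells, to 0.886 and 0.980 in neuroprogenitor-like cells.

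Within a cell type, the kinase genes also varied between clusters. The oligodendrocyte-like cells held a cluster led by Klk6, a protease of mature oligodendrocytes (151 cells in E4 and 157 in E3), and one led by Opalin, a myelin protein (706 and 591 cells). Pdk4 was at 14.4 CPM in E4 and 14.7 CPM in E3 in the cluster led by Klk6, against 4.07 and 4.69 CPM in that led by Opalin, a ratio of 3.53 in E4 (1.76 to 7.19) and 3.13 in E3 (1.56 to 6.37). Pdk2 was higher there by 2.13-fold in E4 and 1.74-fold in E3, and Pdk3 by 1.57-fold and 1.46-fold. Mpc1 (1.09 and 1.11) and Mpc2 (1.22 and 1.15) were also higher, with intervals that left out 1 in both libraries, while the intervals of Pdha1, Pdhb and Dlat held 1 in both. The cells of the cluster led by Klk6 were deeper, with a median of 8486 UMIs against 5695, and CPM values are scaled to the UMIs of each cluster.

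Astrocyte-like cells held a cluster led by Hapln1 with Fezf2 and Lhx2, transcription factors of the forebrain (1771 cells in E4 and 1540 in E3), and one led by Igsf1 with Agt and Slc6a11, known from astrocytes of deeper regions (1386 and 1079 cells). Pdk4 was at 22.9 CPM in E4 and 24.1 CPM in E3 in the cluster led by Hapln1, against 11.2 and 12.8 CPM in that led by Igsf1, a ratio of 2.04 in E4 (1.52 to 2.77) and 1.87 in E3 (1.38 to 2.58). Pdha1 was higher there by 1.44-fold in E4 and 1.39-fold in E3, and Pdk3 by 2.19-fold and 2.97-fold from few UMIs (36 against 11 in E4 and 36 against 7 in E3). Pdk1 went the other way, at 0.675-fold in E4 and 0.731-fold in E3. Pdk2, the main kinase gene of these cells, had ratios of 0.969 in E4 and 0.879 in E3 with intervals that held 1. A further astrocyte-like cluster led by Cxcl14 (825 cells in E4 and 913 in E3) was shallow, with a median of 794.5 UMIs, and had the highest Mpc1 at 808 CPM in E4 and 748 CPM in E3.

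**Figure D4:**
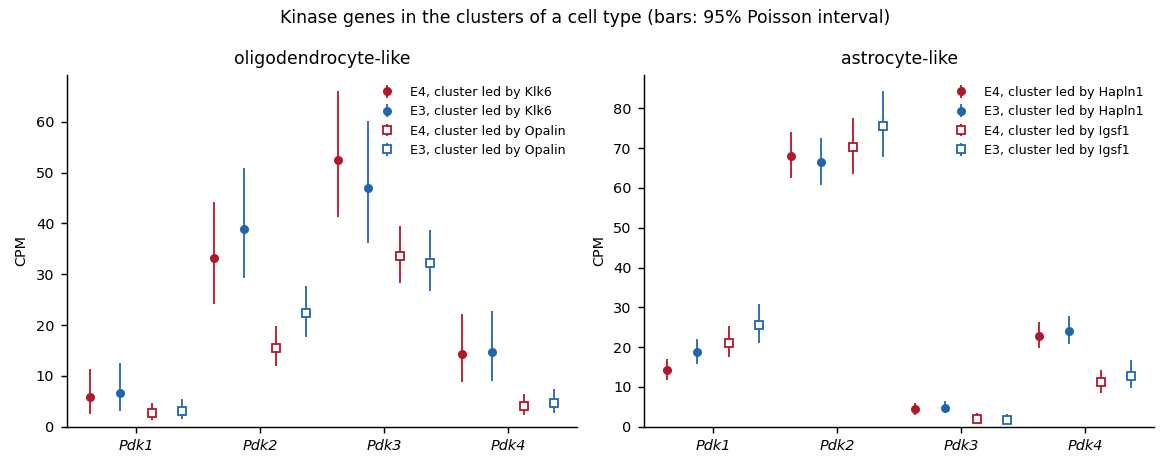
Level of the kinase genes in CPM (vertical axes, starting at 0) in pairs of clusters of oligodendrocyte-like cells (left) and astrocyte-like cells (right), E4 in red and E3 in blue, with bars for the exact 95% Poisson interval. Pdk4 lies higher in the clusters led by Klk6 and by Hapln1 (filled circles) than in those led by Opalin and Igsf1 (open squares) in both libraries.

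Microglia-like cells held 3 clusters, led by Aif1 (1545 cells in E4 and 1655 in E3), by Ccl4 and Atf3 (1394 and 1005) and by C5ar2 (666 and 272). Pdk1 was at 64.8 CPM in E4 and 75.2 CPM in E3 in the cluster led by Aif1, at 59.0 and 63.6 CPM in that led by Ccl4 and Atf3, genes of stimulated microglia, and at 88.5 and 78.6 CPM in that led by C5ar2. The ratio of the cluster led by C5ar2 to that led by Aif1 was 1.37 in E4 (1.17 to 1.59) and 1.04 in E3 (0.836 to 1.30), so it was not apart in both libraries. Mpc1 was lower than in the cluster led by Aif1 in both others, by 0.851-fold in E4 and 0.882-fold in E3 for the cluster led by Ccl4. No Pdk4 UMI was seen in the cluster led by Aif1 in either library. The endothelial-like clusters led by Ptprb and by Ctla2a did not differ in both libraries for any of the 10 genes, and of the neuroprogenitor-like clusters the dividing one led by Top2a had higher Mpc1 than that led by Adarb2, 1.29-fold in E4 and 1.40-fold in E3.

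Counted per cell, these genes were sparse. Each cell was thinned to 1000 UMIs and shallower cells were left out (600 astrocyte-like cells in E4 and 658 in E3). A Pdk2 UMI was then found in 6.56% of E4 and 6.73% of E3 astrocyte-like cells. None was found in the thinned erythroid-like cells, where haemoglobin UMIs take up part of the 1000. Without thinning the shares in astrocyte-like cells were 21.5% in E4 and 21.1% in E3 at median depths of 3681 and 3541.5 UMIs, against 0% in both for erythroid-like cells at median depths of 4779 and 6870 UMIs (0 of 111 cells in E4 and 0 of 142 in E3). A Pdk1 UMI was found in 6.84% of E4 and 6.22% of E3 microglia-like cells after thinning (24.4% and 23.0% before), against 2% and 0% of erythroid-like cells. A Pdk3 UMI was found in 4.09% of E4 and 3.35% of E3 oligodendrocyte-like cells (20.7% and 19.8% before), against 0% and 0.752%. Pdk4 was found in 1.69% of E4 and 2.24% of E3 astrocyte-like cells (6.07% and 7.17% before), against 0% of erythroid-like cells in both libraries. The carrier genes were less sparse. Mpc1 was in 47.2% of E4 and 45.8% of E3 choroid plexus-like cells and 37.2% and 34.5% of astrocyte-like cells. In erythroid-like cells Mpc1 was at 3% and 1.504%. Mpc2 was in 35.5% of E4 and 37.5% of E3 choroid plexus-like cells, against 2% and 0% of erythroid-like cells.

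Over the 20 points formed by 10 types in 2 libraries, Pearson's r of log2(CPM + 1) was 0.96 between Pdhb and Dlat and 0.89 between Mpc1 and Mpc2. It was 0.88 between Pdha1 and Dlat, 0.79 between Pdha1 and Pdhb and 0.67 between Mpc1 and Pdha1. Among the kinase genes r was 0.64 for Pdk2 and Pdk4, 0.55 for Pdk2 and Pdk3, 0.31 for Pdk1 and Pdk2, 0.14 for Pdk1 and Pdk4, -0.01 for Pdk1 and Pdk3 and -0.08 for Pdk3 and Pdk4. Pdk2 had r of 0.89 with Dlat, 0.88 with Mpc1 and 0.86 with Pdhb. Points of a library share its depth and free RNA, the erythroid-like cells are low for most genes, and these values are descriptions. Of 13667 genes with at least 200 UMIs, those nearest to Pdk2 were Hibadh (r = 0.96), Hadhb (0.95) and Mmut (0.94), enzymes of valine, fatty acid and propionate breakdown in mitochondria. Nearest to Pdk1 were Rbm43 (0.91), Akr1b10 (0.89) and Gmpr (0.88), to Pdk3 Fis1 (0.88), Tex2 (0.88) and Lpgat1 (0.86), and to Pdk4 Tmem246 (0.92), Nckap5 (0.92) and Nat8f4 (0.91). Pdha1 was nearest to the mitochondrial genes mt-Cytb (0.98) and mt-Nd4 (0.96) and to Fam162a (0.96). Pdhb was nearest to Mrpl46, Isca2 and 1700021F05Rik (all 0.98), Dlat to Osgepl1, Tssc4 and Tmx2 (all 0.98), and Pdp1 to Bcl7c (0.95), Tent4a (0.93) and Mast2 (0.93). Mpc1 was nearest to Tkt, Tecr and 0610009B22Rik (0.93, 0.93 and 0.92) and Mpc2 to Tecr, Ndufa13 and Atp5d (0.97, 0.97 and 0.96).

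The rest of the dehydrogenase machinery was read from a list of 10 genes. Astrocyte-like cells led for Dld, the subunit shared with related dehydrogenases (89.9 CPM in E4 and 91.7 CPM in E3), and for Pdhx, the protein that anchors Dld (28.7 and 30.6 CPM), Pdp2 (27.3 and 24.3 CPM) and Lias, which makes the lipoyl cofactor (59.95 and 59.4 CPM). Pdha2, the testis copy of Pdha1, had no UMI in any type of either library. Of the 12 listed regulators of the kinase genes, the 4 with the most UMIs were Epas1, Nr3c1, Hif1a and Foxo1. Endothelial-like cells held the highest level of Epas1 (1149 CPM in E4 and 1114 CPM in E3), of Nr3c1, the glucocorticoid receptor (279 and 293 CPM), and of Foxo1 (123 and 111 CPM), and astrocyte-like cells that of Hif1a (141 and 126 CPM). Pcx, the other entry of pyruvate into the cycle, and Cs, which takes up acetyl-CoA, peaked in astrocyte-like cells (38.2 CPM in E4 and 38.7 CPM in E3 for Pcx, 141 and 140.4 CPM for Cs). Ldhb, which interconverts lactate and pyruvate, was at 1385 CPM in E4 and 1459 CPM in E3 choroid plexus-like cells, and Slc16a3, a lactate exporter, at 27.3 and 26.2 CPM in microglia-like cells.

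The comparison of E4 with E3 asks whether the genes of pyruvate entry differ by APOE genotype within a cell type. A gene was called when E4 and E3 differed by at least 1.5-fold and the exact 95% interval of the split of UMIs left out no difference, in types with at least 200 cells and for genes with at least 50 UMIs. Of 60 pairs of gene and type, 53 passed this filter and 0 were called in either direction. The share of all genes called higher and lower in E4 by the same rule was 1.12% and 1.23% of 12451 in astrocyte-like cells, 1.99% and 1.54% of 9361 in choroid plexus-like cells, 2.01% and 1.18% of 10132 in endothelial-like cells, 1.48% and 1.06% of 11183 in microglia-like cells, 4.74% and 1.47% of 8149 in neuroprogenitor-like cells and 1.75% and 1.21% of 9293 in oligodendrocyte-like cells. With 6 to 10 genes per type, a count of 0 is near this background. The 7 pairs below the filter were Pdp1 in choroid plexus-like cells, Pdk4 in microglia-like cells, Pdk1 in oligodendrocyte-like cells and all 4 kinase genes in neuroprogenitor-like cells.

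Smaller differences leaned to lower levels in E4. The interval lay below 0 for 8 of the 53 pairs and above 0 for 0. In astrocyte-like cells Pdk1 was at 16.0 CPM in E4 and 20.7 CPM in E3, from 244 and 285 UMIs, a log2 ratio of -0.37 (-0.63 to -0.12). Pdp1 was at 8.18 CPM in E4 and 10.5 CPM in E3 (-0.36, -0.72 to -0.01), and Pdha1 at 90.6 CPM in E4 and 99.3 CPM in E3 (-0.13, -0.24 to -0.02). The difference in Pdk1 turned round when each cell was thinned to 1000 UMIs, to a log2 ratio of 0.14, and that in Pdha1 shrank to -0.02 as a mean over cells. Pdk2 in the same cells was at 68.5 CPM in E4 and 69.5 CPM in E3 (-0.02, -0.15 to 0.11). Pdk4 in astrocyte-like cells was at 17.8 CPM in E4 and 20.3 CPM in E3 (-0.19, -0.44 to 0.05), an interval that includes 0. In oligodendrocyte-like cells Pdk2 was at 19.9 CPM in E4 and 26.9 CPM in E3, from 111 and 134 UMIs, the lowest log2 ratio of the 8 at -0.43 (-0.81 to -0.06).

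Mpc2 accounted for 3 of the 8 pairs. It was at 99.3 CPM in E4 and 116 CPM in E3 endothelial-like cells (log2 ratio -0.22, -0.38 to -0.06), at 167 and 196 CPM in neuroprogenitor-like cells (-0.24, -0.45 to -0.02) and at 117 and 126 CPM in microglia-like cells (-0.11, -0.21 to -0.01), and its ratio was below 0 in 6 of 6 types. With each cell thinned to 1000 UMIs the ratio was 0.02 in endothelial-like and -0.01 in neuroprogenitor-like cells. Mpc1 was at 124 CPM in E4 and 137 CPM in E3 endothelial-like cells (-0.15, -0.29 to -0.0004), or 0.07 with the clusters weighted alike, and its ratios in 6 types ran from -0.15 to 0.18. Pdk1 and Pdk4 were lower in E4 in 4 of 4 types each, with the interval below 0 for 1 type of Pdk1. Pdhb was lower in E4 in 5 of 6 types and Dlat in 2 of 6, and all of their intervals included 0.

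The same intervals over all genes give the scale for this. In astrocyte-like cells 9.57% of all genes had an interval below 0 and 12.7% above 0, against 3 and 0 of the 10 genes here, and in endothelial-like cells 5.85% and 12.1%, against 2 and 0 of 10. In microglia-like cells it was 6.77% and 16.2% against 1 and 0 of 9, in neuroprogenitor-like cells 5.34% and 11.2% against 1 and 0 of 6, in oligodendrocyte-like cells 6.24% and 10.8% against 1 and 0 of 9, and in choroid plexus-like cells 5.43% and 9.39% against 0 and 0 of 9. The median log2 ratio of the genes was -0.08 in astrocyte-like, -0.07 in endothelial-like, -0.05 in choroid plexus-like, -0.05 in oligodendrocyte-like, 0.003 in microglia-like and 0.06 in neuroprogenitor-like cells, beside 0.01, 0.05, 0.05, 0.03, 0.05 and 0.08 over all genes. Haemoglobin and Alas2 UMIs were scarcer in E4, with a sum of 60.9 CPM in E4 and 418 CPM in E3 astrocyte-like cells and 93.1 and 1907 CPM in neuroprogenitor-like cells, and the part of this in the ratios was not tested.

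**Figure D5:**
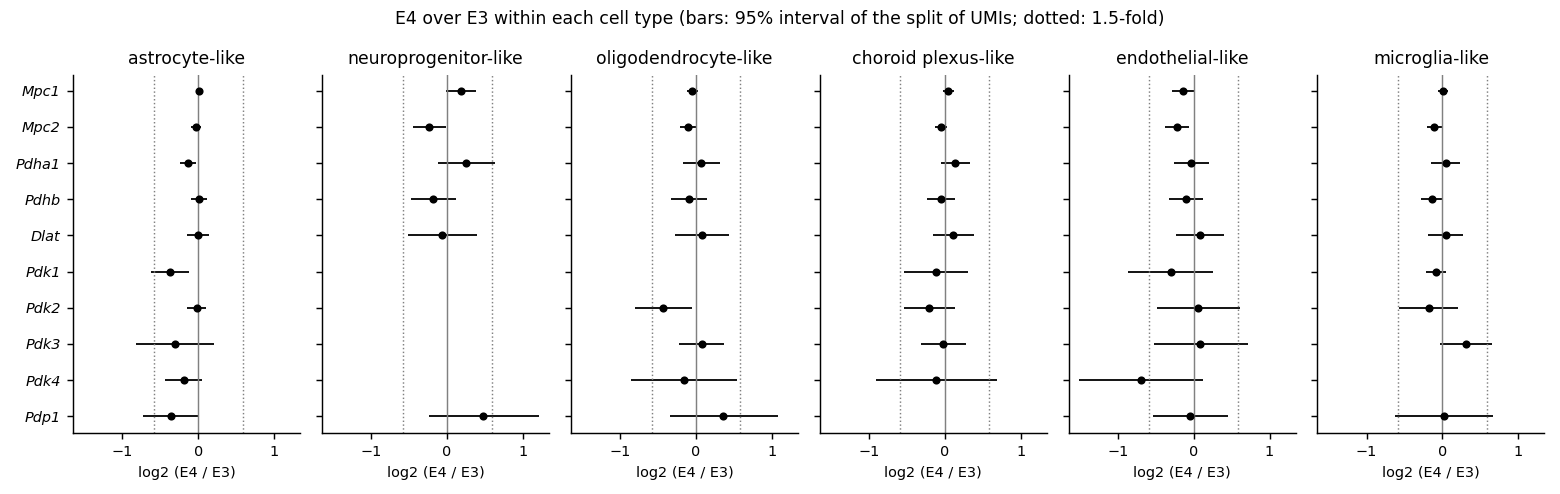
log2 ratio of E4 to E3 (horizontal axes) for each gene (rows) in 6 cell types, with bars for the exact 95% interval of the split of UMIs, a solid line at no difference and dotted lines at 1.5-fold. No gene is past 1.5-fold with an interval that leaves out 0, and the 8 intervals that leave out 0 all lie on the side of lower levels in E4.

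The kinase make-up of E4 and E3 was set side by side, each share with its own interval. Overlap of such intervals does not show that the shares agree, and the difference of the shares was not tested. In astrocyte-like cells the share of Pdk2 was 64.4% in E4 and 60.1% in E3 and that of Pdk1 15.01% and 17.9%, and the intervals of both overlapped. In oligodendrocyte-like cells Pdk3 had 56.1% in E4 (50.9 to 61.1) and 48.7% in E3 (43.5 to 53.9) and Pdk2 29.2% and 36.0%, which also overlapped. Microglia-like cells had Pdk3 at 14.0% in E4 (12.2 to 15.9) and 10.9% in E3 (9.08 to 12.999). Kinases per Pdha1 overlapped between E4 and E3 in all 8 types of the plot of shares. The Mpc1 per Mpc2 ratio was 1.36 in E4 (1.19 to 1.56) and 1.02 in E3 (0.874 to 1.18) neuroprogenitor-like cells. It was higher in E4 with intervals that did not overlap. In meningeal-like cells it was 0.765 in E4 (0.666 to 0.878) and 0.537 in E3 (0.468 to 0.616), also without overlap. Pdp1 per Pdp2 in ependymal-like cells was lower in E4 without overlap, at 0.625 (0.363 to 1.06) against 2.14 in E3 (1.25 to 3.79). It rested on 25 Pdp1 and 40 Pdp2 UMIs in E4 and on 45 and 21 in E3. Meningeal-like and ependymal-like cells had fewer cells in each library than a call requires. The ratios without overlap were picked out of all ratios and types compared. How often such gaps arise for other pairs of genes was not tested.

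Other genes around the pathway, 97 in 9 lists, gave 45 called pairs of gene and type among 468 (40 higher and 5 lower in E4). Over all genes the same rule called 1.12% to 4.74% higher and 1.06% to 1.54% lower, depending on the type. Among the other fates of pyruvate Me1, the malic enzyme, was called in microglia-like cells, at 2.80 CPM in E4 and 1.42 CPM in E3 (log2 ratio 0.98), and among related dehydrogenases Dbt in endothelial-like cells (0.71) and Bckdha (0.77) and Bckdk (0.88) in neuroprogenitor-like cells, all 3 of branched-chain amino acid breakdown. No gene that uses acetyl-CoA was called. Of regulators of the kinase genes Rxra was called in choroid plexus-like cells, at 11.6 CPM in E4 and 7.17 CPM in E3 (0.70).

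Of 10 listed glucocorticoid receptor targets, 1 of 10 tested was called higher in E4 in astrocyte-like cells, 2 of 10 in endothelial-like, 2 of 6 in neuroprogenitor-like and 2 of 9 in oligodendrocyte-like cells, beside 1.12%, 2.01%, 4.74% and 1.75% of all genes. None of 9 in microglia-like and of 6 in choroid plexus-like cells was called, and none was called lower. Some values leaned lower in E4 without a call, such as Ddit4 at 79.7 CPM in E4 and 97.2 CPM in E3 astrocyte-like cells (log2 ratio -0.29). Tsc22d3 was lower in E4 microglia-like cells (114 and 157 CPM, -0.47) and choroid plexus-like cells (15.2 and 21.5 CPM, -0.50). It was higher in E4 astrocyte-like cells (296 and 235 CPM, 0.33) and endothelial-like cells (236 and 217 CPM, 0.12). Fkbp5, which feeds back on the receptor, was at 5.83 CPM in E4 and 2.47 CPM in E3 astrocyte-like cells (log2 ratio 1.24), at 14.2 and 8.15 CPM in endothelial-like cells (0.80), at 29.7 and 18.2 CPM in neuroprogenitor-like cells (0.71) and at 25.0 and 13.2 CPM in oligodendrocyte-like cells (0.92). Zbtb16 was called in endothelial-like (0.68) and oligodendrocyte-like cells (0.89) and Sgk1 in neuroprogenitor-like cells (0.66). Of PPAR and FOXO targets, Irs2 was higher (1.02) and Cdkn1a lower (-0.85) in E4 neuroprogenitor-like cells. Of hypoxia-inducible factor targets, Adm was at 11.3 CPM in E4 and 34.0 CPM in E3 endothelial-like cells (-1.59), Vegfa was lower in E4 oligodendrocyte-like cells (-0.68), and Slc2a1, the glucose transporter, was higher in E4 neuroprogenitor-like cells (1.29).

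Most of the calls, 27 of 45, were immediate-early and stress genes, which warm digestion is known to raise. They included 9 of 12 tested genes in neuroprogenitor-like cells (4.74% of all genes were called higher there), such as Fos at 295 CPM in E4 and 112 CPM in E3, and 7 of 14 in oligodendrocyte-like cells (1.75% of all genes), such as Hspa1a at 29.8 and 15.05 CPM. Their sum over the 15 listed genes was 13265 CPM in E4 and 10263 CPM in E3 microglia-like cells, 2673 and 1508 CPM in neuroprogenitor-like cells and 398 and 381 CPM in astrocyte-like cells. Hspa1b and Hspb1 were lower in E4 microglia-like cells (-0.83 and -0.65). The part of this list in the ratios of the pyruvate genes was not tested. No pyruvate gene was called with or without the cluster led by Ccl4 and Atf3, so leaving it out does not measure that part.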

How the data were processed

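Single-cell RNA sequencing libraries of 1 E4 and 1 E3 pool were compared. The deposited counts are unnormalized UMIs for each gene in each cell, made by the authors with Cell Ranger on mm10, per the labels and methods. The headers of the counts give version 6.1.1 for E4 and 6.1.2 for E3, so version and genotype cannot be told apart. Counting against annotated exons can drop reads that fit more than 1 gene.

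The study's cell filter (50 to 50000 UMIs, mitochondrial share up to 30%) was applied, which removed no barcode at the lower limit. Counts were scaled to 10000 per cell and logged, and 2000 variable genes, 20 principal components, 15 neighbours and Leiden resolution 1 gave 32 clusters (Python 3.11.15, numpy 2.4.6, pandas 2.3.3, scipy 1.17.1, scikit-learn 1.9.0, igraph 0.11.9, leidenalg 0.10.2, figures with matplotlib 3.10.9). A cluster was named when at least 3 markers were 2-fold higher and in 20% of its cells. A cluster that met this was still left unnamed when it was shallow and had no such marker among its leading genes. These naming limits were set after the clusters had been seen, and names rebuilt in this way can differ from those of the study. Unnamed clusters held 7.15% of E4 and 7.12% of E3 cells, and clusters with markers of 2 types 1.25% and 0.983%. The unnamed clusters were shallow but did pass the marker limits. That led by Bc1 had 6 astrocyte markers (552 cells in E4 and 498 in E3), and that led by Tyrobp 4 microglia markers (415 and 306). The cluster led by Cxcl14 was also shallow, and it kept its name because Aldoc was among its leading genes. Doublets were scored against 2 simulated doublets per cell, which called 5.85% of E4 and 4.29% of E3 cells, and clusters with over 50% of such cells were left out (4.38% and 3.30%). Other called cells were kept.

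Counts were summed per cell type and library. Levels have exact Poisson, shares exact Clopper-Pearson and ratios exact binomial 95% intervals, which cover counting error alone. No p-value was computed, as each genotype has 1 library. Calls need at least 200 cells per library, at least 50 UMIs and 1.5-fold. The interval and ratio steps were tested on simulated data. Sequences and gene positions came from RefSeq and GENCODE tables of GRCm38. The genes and lists were chosen with earlier results of these data known. The result of a single list gene is not reported here. The genes named are the 10 members, list genes past the call limit, up to 4 list genes with the most UMIs and the 3 genes most like each member by correlation. Pcx, Pdha2, Slc16a3, Tsc22d3, Ddit4 and the genes that lead clusters were named after their values were seen. Alternatives covered cell filter, thinning, doublets, resolution, scaling, averaging, UMI minimum and clusters left out.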

Additional observations from a re-analysis of the deposited data

How the results depend on the processing

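Of the 10 genes, 0 were called between E4 and E3 in any type under every alternative, over 34 to 60 pairs. Of 710 alternative values of the 53 ratios, 681 stayed within the interval of the main value and 29 did not, and 26 of the 53 ratios kept their sign throughout. The number of genes with their highest type unchanged in both libraries fell to 3 with each cell thinned to 1000 UMIs, against 6 without thinning, and the number with 1 highest type in both libraries was 10, against 6, with a mean over cells of their CPM. Mpc1 moved to choroid plexus-like cells in 6 settings (1.01-fold to 1.16-fold over the next type) and Pdhb to neuroprogenitor-like cells in 3. After thinning Dlat and Pdk3 also moved to choroid plexus-like cells and Pdk1 and Pdp1 to ependymal-like cells (1.03-fold to 1.12-fold over the next type). The share of Pdk3 in choroid plexus-like cells, as the mean of both libraries, was 53.6% after thinning against 41.5%. That of Pdk1 in microglia-like cells was 73.8% against 77.8% with the doublet clusters returned, an alternative chosen after seeing the data, as were leaving out shallow clusters and the cluster led by Ccl4 and Atf3. List genes gave 25 called pairs of 350 with at least 200 UMIs, against 45 of 468 with at least 50. The causes were not tested, though thinning leaves fewer UMIs and a higher minimum fewer pairs. Median-of-ratios scaling shifted all log2 ratios by 0.01 to 0.08. No paired analysis was possible because each genotype has 1 library. Depth limits Pdk4, Pdp1 and the smaller types most, and the spread between mice is unknown.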

Other observations

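In types with fewer than 100 cells in a library the genes were also read. Oligodendrocyte precursor-like cells (54 in E4 and 55 in E3) had Mpc1 at 325 CPM in E4 and 379 CPM in E3, Mpc2 at 312 and 368 CPM, and Pdk2 at 51.6 and 36.5 CPM from 20 and 13 UMIs. Mural-like cells (208 in E4 and 97 in E3) had Mpc1 at 230 CPM in E4 and 195 CPM in E3 and Pdha1 at 103 and 112 CPM.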
